A study of Mus musculus with 11 samples.

Results

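Ccl3, Ccl4, Ccl5, Ccl6 and Ccl9 are 5 CC chemokine genes that lie side by side in the macrophage inflammatory protein (MIP) region of mouse chromosome 11. They were taken by name from the deposited count table, where all 5 were present among 42375 named genes and all 5 were among the 15024 genes that passed the filter on low counts. RNA was sequenced from bone marrow derived macrophages of C57BL/6 mice, in 11 libraries. The M1 KD group had 2 libraries of M1 macrophages given a gapmer against the lncRNA MERRICAL, and the M1 NS group had 3 libraries of M1 macrophages given the NS gapmer. M0 KD and M0 NS, with 3 libraries each, were M0 macrophages given the MERRICAL gapmer and the NS gapmer. A gapmer is an antisense oligonucleotide through which RNase H cuts the paired transcript, and every group received one for 16 hours.

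The sources used here do not give the stimulus of the M1 state, the strand setting of the counting or the meaning of the library numbers. Those numbers are 5 and 6 in M1 KD, and 1, 2 and 4 in each of the other 3 groups, so a difference in handling behind the numbers and the gapmer effect in M1 cannot be told apart. Libraries of a group are nowhere said to come from separate cultures, and a p-value here therefore reflects library-to-library spread alone, possibly technical. No row of the table carries the name MERRICAL, and its level was not analysed here. Total counts per library ran from 30040632 to 43250392. The 10 macrophage markers were each above 1 CPM in every library, and their summed CPM was 14370 to 17550 in M1 KD, 13400 to 15860 in M1 NS, 19540 to 21350 in M0 KD and 25880 to 27170 in M0 NS. Among them Lyz2 reached 18700 CPM, and the next highest, Emr1, 4620 CPM. In M1 NS against M0 NS, 4 of the 10 were called higher and 4 lower, with a median log2 fold change of -0.0171. All 12 listed genes of classical activation were higher in M1 NS than in M0 NS, with a median log2 fold change of 7.35, and of 7 tested genes of alternative activation 6 were lower and 1 higher. Of all 15024 genes tested, 26.9% were called higher and 28.6% lower in that comparison.

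Chemokines are small secreted proteins that steer migrating leukocytes by way of G protein-coupled receptors. Ccl3 and Ccl4, also called MIP-1 alpha and MIP-1 beta, are made within hours by macrophages that meet microbial products, and Ccl5, also called RANTES, is a later product of macrophages and of activated T and NK cells. Ccl3 and Ccl5 bind Ccr1, a receptor of monocytes and other leukocytes. Ccl6 (C10) and Ccl9 (MIP-1 gamma) are rodent chemokines of the same family that act on Ccr1 and are made by resting myeloid cells.

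On GRCm38, with the GENCODE M21 annotation, the 5 genes span 138.9 kb. Ccl5 stands at chr11:83525778-83530518, Ccl9 at chr11:83572919-83578636, Ccl6 at chr11:83587882-83593087 and Ccl3 at chr11:83647844-83649355, all on the minus strand. Ccl4 stands at chr11:83662584-83664683 on the plus strand. Ccl3, Ccl4 and Ccl5 have 3 exons, whereas Ccl6 and Ccl9 have 4. The coding sequences of Ccl3 and Ccl4 were 68.1% identical and those of Ccl6 and Ccl9 65.1%, against 46.7% for Ccl5 and Ccl9, the least alike of the 10 pairs. The longest run of identical bases between the transcripts was 25 for Ccl6 and Ccl9 and 9 to 13 for the other 9 pairs. The lncRNA gene E230016K23Rik overlaps the span of Ccl6 on the other strand. Reads from any exon sequence they share could not be told apart without strand, and whether their exons overlap was not examined. That lncRNA averaged 0.0549 CPM in M1 KD, 0.0812 CPM in M1 NS, 0.288 CPM in M0 KD and 0.196 CPM in M0 NS.

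Promoters are shown for Ccl3, Ccl6 and Ccl9, the only genes of the set with an entry in the RefSeq promoter annotation used. Between the M1 groups, Ccl6 and Ccl9 RNA moved the same way and Ccl3 RNA the other way. The part of these sequences in that was not tested. Each sequence runs from 250 bases before to 50 bases after the gene start of the RefSeq annotation of GRCm38.p6, 5′ to 3′ along the gene. The 3 windows are chr11:83593038-83593337 for Ccl6, chr11:83578587-83578886 for Ccl9 and chr11:83649329-83649628 for Ccl3, all on the minus strand. Capitals mark the bases of Ccl6 and Ccl9 that were paired with each other in their local alignment, whether or not the bases matched.
Ccl6: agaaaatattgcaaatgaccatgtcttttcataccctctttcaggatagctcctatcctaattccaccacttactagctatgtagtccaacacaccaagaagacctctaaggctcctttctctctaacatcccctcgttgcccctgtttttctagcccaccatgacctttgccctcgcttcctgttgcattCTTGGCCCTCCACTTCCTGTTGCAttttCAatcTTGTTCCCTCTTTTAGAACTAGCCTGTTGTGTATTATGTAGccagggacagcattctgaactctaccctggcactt
Ccl9: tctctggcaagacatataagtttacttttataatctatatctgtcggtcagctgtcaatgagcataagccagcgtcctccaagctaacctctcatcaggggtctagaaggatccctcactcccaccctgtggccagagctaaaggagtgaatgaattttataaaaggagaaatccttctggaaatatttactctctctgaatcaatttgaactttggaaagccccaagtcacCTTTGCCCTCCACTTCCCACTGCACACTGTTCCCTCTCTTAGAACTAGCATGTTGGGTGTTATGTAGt
Ccl3: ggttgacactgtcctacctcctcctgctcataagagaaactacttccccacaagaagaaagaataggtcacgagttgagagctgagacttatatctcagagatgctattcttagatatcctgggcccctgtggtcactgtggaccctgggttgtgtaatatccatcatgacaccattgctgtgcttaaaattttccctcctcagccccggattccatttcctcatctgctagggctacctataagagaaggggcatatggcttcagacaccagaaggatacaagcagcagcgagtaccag
The alignment of Ccl6 with Ccl9 held 58 identical bases in 74 columns, or 78.4%, and lay at positions 192 to 265 of the Ccl6 window and 233 to 299 of the Ccl9 window. Most of the aligned stretch thus lay before the gene start in Ccl6 and after it in Ccl9. The best local alignment of the Ccl3 window had 12 columns with Ccl6 and 11 with Ccl9. Motifs were searched on both strands. The Ccl9 window held a match to the NF-kappaB motif at -35 from the gene start, as did 8.46% of 32851 promoters of the same length. It also held the AP-1 motif TGANTCA at -53, found in 7.81% of the promoters. The TATA box letters TATAAA stood in it at -92, with further copies on the other strand at -224 and -94, and in 13.6% of the promoters. The Ccl9 matches to these letters at -94 and -92 overlap. Only exact letters were searched, and whether a match serves as a TATA box was not tested. None of these letters stood in the Ccl3 and Ccl6 windows. The interferon-stimulated response element (3.44% of promoters) and the CRE TGACGTCA (1.79%) stood in none of the 3 windows.

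For M1 macrophages, the MERRICAL gapmer was compared with the NS gapmer as M1 KD against M1 NS. Ccl3 and Ccl4 RNA fell 4.74-fold and 6.61-fold, whereas Ccl6 and Ccl9 RNA rose 3.81-fold and 3.49-fold. Ccl5, by far the highest of the 5 genes in both groups, did not pass the test. With edgeR and Benjamini-Hochberg adjustment, 4 of the 5 genes were called, 2 higher and 2 lower, where 36.8% of the 15024 genes tested were called, 17.6% higher and 19.2% lower. The ranges did not overlap for the same 4 genes, where 52.4% of the genes tested had such ranges, 26.1% with M1 KD higher and 26.3% lower.

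Ccl3, a ligand of Ccr1, had 22.4 and 57.2 CPM in M1 KD replicates 5 and 6, against 244, 156 and 164 CPM in M1 NS replicates 1, 2 and 4. CPM stands for the count divided by the library total, itself scaled by TMM factors. Both M1 KD libraries lay below all 3 M1 NS libraries, although they differed 2.55-fold from each other. The means were 39.8 ± 24.6 CPM in M1 KD (SD, n = 2) and 188 ± 48.2 CPM in M1 NS (SD, n = 3). The log2 fold change was thus -2.24 (SE 0.343, adjusted p = 0.000445, edgeR). Leaving out M1 KD replicate 6 moved it to -3.07, and leaving out M1 KD replicate 5 to -1.73, with the call kept in each.

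Ccl4, which attracts monocytes and T cells, had 6.75 and 24.9 CPM in M1 KD replicates 5 and 6, against 139, 117 and 56.1 CPM in M1 NS replicates 1, 2 and 4. Again the groups did not overlap, with replicate 5 the lower of the M1 KD libraries and replicate 4 the lowest of the M1 NS libraries. The means were 15.85 ± 12.9 CPM in M1 KD (SD, n = 2) and 104 ± 43.02 CPM in M1 NS (SD, n = 3), and the log2 fold change was -2.72 (SE 0.484, adjusted p = 0.00116, edgeR). It was -3.95 without M1 KD replicate 6 and -2.07 without M1 KD replicate 5, both still called.

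Ccl6 had 108 and 93.4 CPM in M1 KD replicates 5 and 6, against 28.9, 32.6 and 17.7 CPM in M1 NS replicates 1, 2 and 4. The M1 KD libraries lay close together and far above all M1 NS libraries. The means were 101 ± 10.02 CPM in M1 KD (SD, n = 2) and 26.4 ± 7.75 CPM in M1 NS (SD, n = 3), and the log2 fold change was 1.93 (SE 0.290, adjusted p = 0.00039, edgeR). Ccl9, the next gene along the chromosome, had 679 and 318 CPM in M1 KD replicates 5 and 6, against 180.4, 147 and 101 CPM in M1 NS replicates 1, 2 and 4. The groups did not overlap for Ccl9 either, but here replicate 5 was the higher of the M1 KD libraries. The log2 fold change of Ccl9 was 1.80 (SE 0.369, adjusted p = 0.00274, edgeR). Without M1 KD replicate 5 it was 1.15 and no longer called (adjusted p = 0.0555).

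Ccl5 had 3983 and 5720.5 CPM in M1 KD replicates 5 and 6, against 4069, 4794 and 3250 CPM in M1 NS replicates 1, 2 and 4. The groups overlapped, with M1 NS replicates 1 and 2 between the M1 KD libraries. Its log2 fold change was 0.27 (SE 0.386, adjusted p = 0.62, edgeR), with a 95% interval from -0.58 to 1.11. The interval does not hold a fall of the size seen for Ccl3 or Ccl4.

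In bulk RNA, fewer cells that make a transcript and less transcript per cell cannot be told apart. The markers of neutrophils and their precursors, 10 genes, summed to 199 to 208 CPM in M1 KD and 236 to 308 CPM in M1 NS, with 1 called higher and 2 lower. Those of basophils and mast cells summed to 3.55 to 3.68 CPM in M1 KD and 2.75 to 5.27 CPM in M1 NS, those of B cells to 1.28 to 1.48 CPM in M1 KD and 0.573 to 1.06 CPM in M1 NS, and those of stromal cells to 1.67 to 4.02 CPM in M1 KD and 2.24 to 6.22 CPM in M1 NS. These lists were thus low beside the macrophage markers in every M1 library. The dendritic cell list summed to 135 to 616 CPM in M1 KD and 111 to 350.3 CPM in M1 NS, most of it Ccr7, which reached 581 CPM. All 7 of its genes were tested, and 1 rose and none fell in M1 KD, where 17.6% of the genes tested were called higher and 19.2% lower. The gene that rose was Flt3, at means of 2.99 CPM in M1 KD and 0.878 CPM in M1 NS (log2 fold change 1.79, adjusted p = 0.0033, edgeR). Over all 11 libraries, M0 included, Batf3, Xcr1 and Clec9a reached at most 12.7, 11.4 and 9.11 CPM, and Zbtb46 and Siglech at most 3.51 and 4.52 CPM. The T and NK cell list summed to 11.8 to 13.3 CPM in M1 KD and 2.98 to 7.05 CPM in M1 NS. Of its 12 genes 5 were tested, and 1 rose and none fell. The gene that rose was Lck, a tyrosine kinase gene of T cells, at means of 7.41 CPM in M1 KD and 1.39 CPM in M1 NS (log2 fold change 2.43, adjusted p = 0.0039, edgeR). Cd8a and Cd247 reached 3.44 and 2.39 CPM, while Cd3d, Cd3e and Cd3g reached at most 0.233, 0.334 and 0.334 CPM in any library, and Gzma had a count of 0 in all 11. The part of these lists in the differences was not tested.

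**Figure D1:**
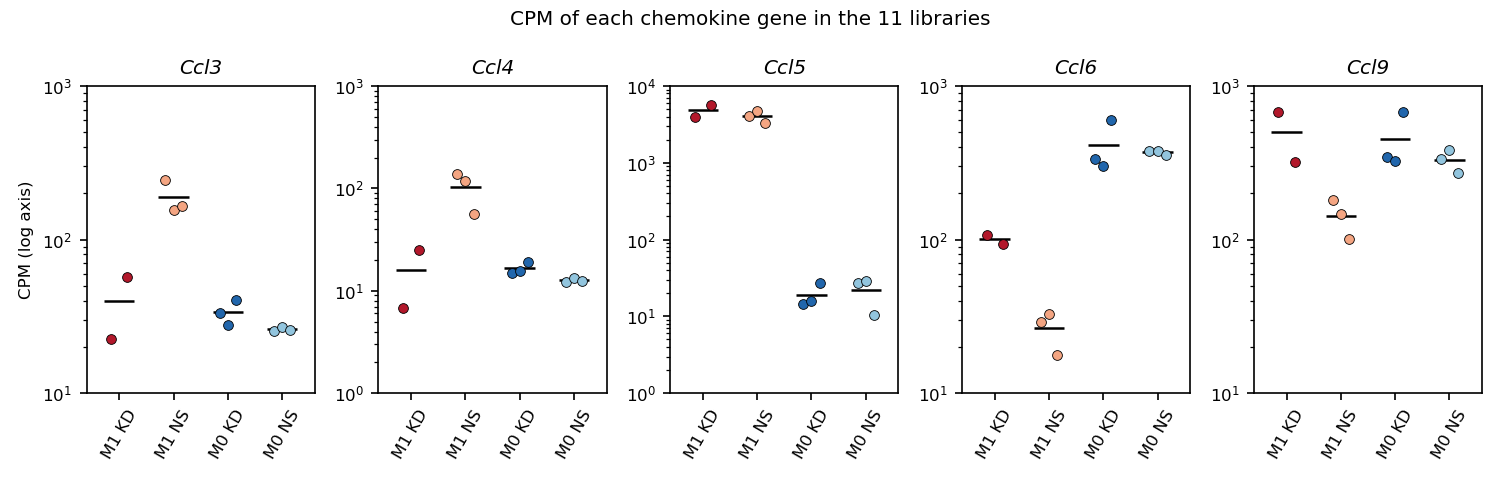
CPM of the 5 chemokine genes on log axes, 1 point per library and a line at the group mean, for M1 KD (2 libraries), M1 NS, M0 KD and M0 NS (3 libraries each). Both M1 KD points lie below the M1 NS points for Ccl3 and Ccl4 and above them for Ccl6 and Ccl9, and Ccl5 is at 3250 CPM or more in all 5 M1 libraries.

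In M0 macrophages, where the same gapmers were compared as M0 KD against M0 NS, none of the 5 genes passed the test. Nor did any other, since edgeR called 0 of 15024 genes, or 0%, with 1947 at an unadjusted p under 0.05. DESeq2 called 181, and limma-voom and limma-trend 0 each. Fitted on the M0 groups alone, edgeR called 1103 of 13683 genes, and none of the 5 chemokine genes. In that fit the log2 fold change was 0.38 for Ccl3 (SE 0.132, adjusted p = 0.102, edgeR) and 0.40 for Ccl4 (SE 0.113, adjusted p = 0.0605). For 2 of the 5 genes, Ccl3 and Ccl4, the ranges did not overlap, M0 KD being higher, where 35.1% of the genes tested had such ranges, 17.2% with M0 KD higher and 17.9% lower.

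Ccl3 had 33.1, 27.6 and 40.6 CPM in M0 KD replicates 1, 2 and 4, against 25.5, 27.1 and 25.8 CPM in M0 NS replicates 1, 2 and 4. Ccl4 had 14.96, 15.7 and 19.3 CPM in M0 KD, against 12.1, 13.3 and 12.6 CPM in M0 NS in the same order of replicates. For both genes every M0 KD library lay above every M0 NS library, by little in the nearest pair. The log2 fold change was 0.37 for Ccl3 (SE 0.284, 95% interval -0.25 to 0.99, adjusted p = 0.565, edgeR) and 0.39 for Ccl4 (SE 0.393, 95% interval -0.46 to 1.25, adjusted p = 0.658). Neither interval reaches the falls of Ccl3 and Ccl4 found in M1.

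Ccl6 had 335, 303 and 599.8 CPM in M0 KD replicates 1, 2 and 4, against 379, 379 and 358 CPM in M0 NS replicates 1, 2 and 4. Ccl9 had 344, 325 and 677 CPM in M0 KD, against 336, 380.2 and 269.8 CPM in M0 NS in the same order. M0 KD replicate 4 was the highest M0 library for both genes, and the other M0 KD libraries lay below M0 NS for Ccl6 and among M0 NS for Ccl9. The log2 fold change was 0.15 for Ccl6 (SE 0.259, adjusted p = 0.807) and 0.45 for Ccl9 (SE 0.333, adjusted p = 0.55). Without M0 KD replicate 4 they were -0.22 and 0.03, so that the sign for Ccl6 rested on that library.

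Ccl5 was low in M0 cells, at 14.4, 15.8 and 27.2 CPM in M0 KD replicates 1, 2 and 4, against 26.9, 28.5 and 10.5 CPM in M0 NS replicates 1, 2 and 4. The groups overlapped, and replicate 4 stood apart in each, as the highest in M0 KD and the lowest in M0 NS. The log2 fold change was -0.20 (SE 0.353, 95% interval -0.97 to 0.57, adjusted p = 0.815, edgeR). M0 KD replicate 4 was also the highest M0 library for Ccr3 (80.3 CPM, against 26.6 to 33.8 CPM in the other 5), for Ccl2 (61.7 CPM, against 8.23 to 15.9 CPM) and for Ccl7 (23.1 CPM, against 3.66 to 5.91 CPM). The summed neutrophil and precursor markers were 665 to 712 CPM in M0 KD and 1242 to 2201 CPM in M0 NS, and their part in these values was not tested.

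Whether the gapmer effect differed between the states was tested as the effect in M1 minus the effect in M0. The test called 3 of the 5 genes, 1 higher and 2 lower, where 27.3% of the genes tested were called, 13.1% higher and 14.2% lower. The difference on the log2 scale was -2.61 for Ccl3 (SE 0.438, adjusted p = 0.00151, edgeR), -3.12 for Ccl4 (SE 0.611, adjusted p = 0.00344) and 1.78 for Ccl6 (SE 0.388, adjusted p = 0.00607). Ccl9 had a difference of 1.36 and did not pass (SE 0.497, adjusted p = 0.0616), though it passed with DESeq2, with no filter on low counts, and without M0 KD replicate 4 or M1 KD replicate 6. For Ccl5 the difference was 0.46, with a 95% interval from -0.68 to 1.60 (adjusted p = 0.545).

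**Figure D2:**
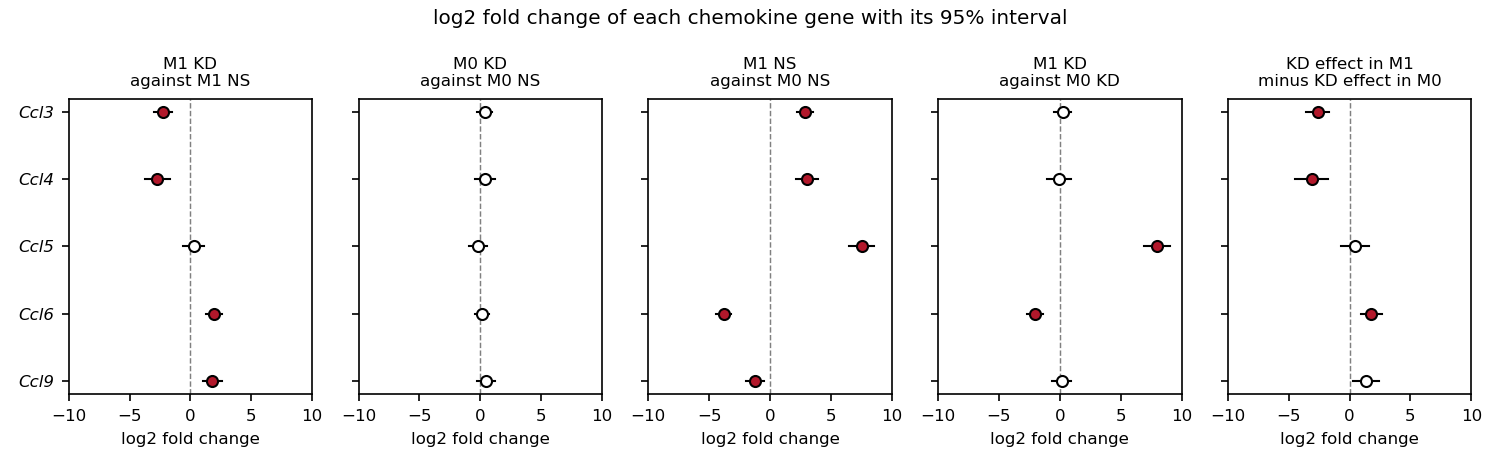
log2 fold change of the 5 chemokine genes with 95% intervals in 5 panels, M1 KD against M1 NS, M0 KD against M0 NS, M1 NS against M0 NS, M1 KD against M0 KD, and the gapmer effect in M1 minus that in M0. Filled points are genes called at an adjusted p under 0.05, and in the M0 KD against M0 NS panel all 5 points are open.

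The difference between the states was read with each gapmer, as M1 NS against M0 NS and as M1 KD against M0 KD. The comparison of M1 NS with M0 NS uses the same M1 NS libraries as that of M1 KD with M1 NS. With the NS gapmer, Ccl3, Ccl4 and Ccl5 rose in M1 and Ccl6 and Ccl9 fell. All 5 genes were called with edgeR, 3 higher and 2 lower, where 55.5% of the genes tested were called, 26.9% higher and 28.6% lower. In none of the 5 did the ranges overlap, nor did they for 61.4% of the genes tested, 28.6% with M1 NS higher and 32.8% lower.

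Ccl5 averaged 4038 ± 773 CPM in M1 NS and 21.95 ± 9.98 CPM in M0 NS (SD, n = 3 each). It rose 184-fold (log2 fold change 7.52, SE 0.463, adjusted p = 8.77e-08, edgeR). Ccl3 averaged 188 ± 48.2 CPM in M1 NS and 26.15 ± 0.870 CPM in M0 NS, and the log2 fold change was 2.85 (SE 0.301, adjusted p = 6.96e-06). The log2 fold change of Ccl4 was 3.04 (SE 0.416, adjusted p = 5.79e-05), with means of 104 ± 43.02 CPM in M1 NS and 12.7 ± 0.607 CPM in M0 NS. The rise of Ccl5 was thus far larger than those of Ccl3 and Ccl4, and its 95% interval, 6.52 to 8.53, lies wholly above theirs, 2.19 to 3.50 and 2.13 to 3.94.

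Ccl6 fell 14.1-fold, to 26.4 ± 7.75 CPM in M1 NS, against 372 ± 12.2 CPM in M0 NS (SD, n = 3 each), a change of -3.82 on the log2 scale (SE 0.291, adjusted p = 4.69e-07, edgeR). Ccl9 fell 2.30-fold, to 143 ± 39.7 CPM in M1 NS, against 329 ± 55.5 CPM in M0 NS (log2 fold change -1.203, SE 0.338, adjusted p = 0.00918). The 95% intervals of these neighbours, -4.45 to -3.19 for Ccl6 and -1.94 to -0.47 for Ccl9, do not meet. For the marker lists below, the background of this comparison was 26.9% of all genes tested called higher and 28.6% lower, with a median log2 fold change of -0.038. Beside the falls, the summed neutrophil and precursor markers were 236 to 308 CPM in M1 NS and 1242 to 2201 CPM in M0 NS, with 9 of the 10 called lower and none higher, and their part in the falls was not tested. Beside the rise of Ccl5, the T and NK cell markers summed to 2.98 to 7.05 CPM in M1 NS and 1.29 to 1.61 CPM in M0 NS. Of the 5 tested, 4 rose, Cd247, Lck, Cd8a and Gzmb, and Nkg7 fell, with a median log2 fold change of 2.83. Cd247 averaged 1.78 CPM in M1 NS and 0.148 CPM in M0 NS, and Lck 1.39 CPM in M1 NS and 0.322 CPM in M0 NS. Of the 7 dendritic cell markers, 4 rose (Ccr7, Xcr1, Clec9a and Zbtb46) and 2 fell (Flt3 and Siglech), with a median of 1.09. The part of both lists in the rise was not tested.

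With the MERRICAL gapmer, the same comparison of states left 2 of the 5 genes called by edgeR, 1 higher and 1 lower, where 58.3% of the genes tested were called, 26.9% higher and 31.4% lower. Ccl5 averaged 4852 ± 1229 CPM in M1 KD (SD, n = 2) and 19.1 ± 6.99 CPM in M0 KD (SD, n = 3), and differed by 7.99 on the log2 scale (SE 0.480, adjusted p = 9.91e-08). Ccl6 averaged 101 ± 10.02 CPM in M1 KD and 413 ± 163 CPM in M0 KD, and differed by -2.04 (SE 0.313, adjusted p = 0.00014). These were the genes whose M1 KD and M0 KD ranges did not overlap, as was so for 74.9% of the genes tested, 34.4% with M1 KD higher and 40.6% lower.

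The other 3 genes did not pass between M1 KD and M0 KD. Ccl3 averaged 39.8 ± 24.6 CPM in M1 KD (SD, n = 2) and 33.8 ± 6.53 CPM in M0 KD (SD, n = 3), which gave a log2 fold change of 0.23 with a 95% interval from -0.45 to 0.92 (adjusted p = 0.547, edgeR). Ccl4 averaged 15.85 ± 12.9 CPM in M1 KD and 16.7 ± 2.30 CPM in M0 KD, a log2 fold change of -0.08 with a 95% interval from -1.04 to 0.88 (adjusted p = 0.883). These values hide a wide split between the M1 KD libraries. Without replicate 5, Ccl3 was called higher in M1 KD (log2 fold change 0.75, adjusted p = 0.0278), and without replicate 6, Ccl4 was called lower (-1.30, adjusted p = 0.0227). Ccl9 averaged 498 ± 255 CPM in M1 KD and 449 ± 198 CPM in M0 KD, a log2 fold change of 0.15 with a 95% interval from -0.65 to 0.96 (adjusted p = 0.744).

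Levels of different genes can be set side by side once divided by gene length. Per kilobase of annotated exon sequence, Ccl5 led in both M1 groups, at a mean of 5054 CPM per kb in M1 KD and 4206 CPM per kb in M1 NS. In M1 KD it was followed by Ccl9 at 164, Ccl6 at 56.0, Ccl3 at 51.9 and Ccl4 at 24.01 CPM per kb. Ccl6, at 52.0 to 59.9, lay inside the range of Ccl3, 29.2 to 74.6, which in turn overlapped that of Ccl4, 10.2 to 37.8. Within a library, Ccl3 lay above Ccl4 in both, at 29.2 against 10.2 in replicate 5 and 74.6 against 37.8 in replicate 6. Ccl6 lay above Ccl3 in replicate 5 and below it in replicate 6.

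In M1 NS the genes behind Ccl5 stood in another order, with Ccl3 at 246 and Ccl4 at 158 CPM per kb ahead of Ccl9 at 46.9 and Ccl6 at 14.7 CPM per kb. The ranges of Ccl3, 204 to 318, and Ccl4, 85.1 to 211, overlapped, and those of the other neighbours did not. Within each M1 NS library, Ccl3 lay above Ccl4. In M0 KD the order was Ccl6 at 229.9, Ccl9 at 147, Ccl3 at 44.1, Ccl4 at 25.2 and Ccl5 at 19.9 CPM per kb, with overlap between Ccl6 (169 to 334) and Ccl9 (107 to 222) and between Ccl4 (22.7 to 29.2) and Ccl5 (14.996 to 28.3). Within each M0 KD library, by this length, Ccl6 lay above Ccl9 and Ccl4 above Ccl5.

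In M0 NS it was Ccl6 at 207, Ccl9 at 108, Ccl3 at 34.1, Ccl5 at 22.9 and Ccl4 at 19.2 CPM per kb, and Ccl5, from 10.9 to 29.7, spanned the range of Ccl4. The place of Ccl5 in M0 depended on the length used. Divided by its 532 base transcript in place of its 960 bases of annotated exon, it averaged 36.0 CPM per kb in M0 KD, above Ccl4, and 41.3 CPM per kb in M0 NS, above Ccl3.

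The make-up of the 5 genes' summed level per kb thus differed between the states. Ccl5 held 92.8 to 95.7% of it in M1 KD, 87.5 to 91.8% in M1 NS, 3.94 to 4.69% in M0 KD and 3.102 to 7.05% in M0 NS. Ccl6 held 0.836 to 1.34% in M1 KD, 0.264 to 0.334% in M1 NS, 48.0 to 50.1% in M0 KD and 50.1 to 56.7% in M0 NS. Ccl3 held 0.654 to 1.198% in M1 KD, 3.75 to 6.57% in M1 NS, 7.95 to 11.4% in M0 KD and 8.31 to 9.58% in M0 NS. In M1 the gapmer groups therefore differed in the minor components, with Ccl3 and Ccl4 each ahead of Ccl9 and Ccl6 in every M1 NS library, and Ccl9 ahead of Ccl3 and Ccl4 in both M1 KD libraries. Together the 5 genes made up 0.404 and 0.513% of all counts in M1 KD, 0.389, 0.441 and 0.324% in M1 NS, 0.0789 to 0.163% in M0 KD and 0.0783 to 0.0907% in M0 NS.

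**Figure D3:**
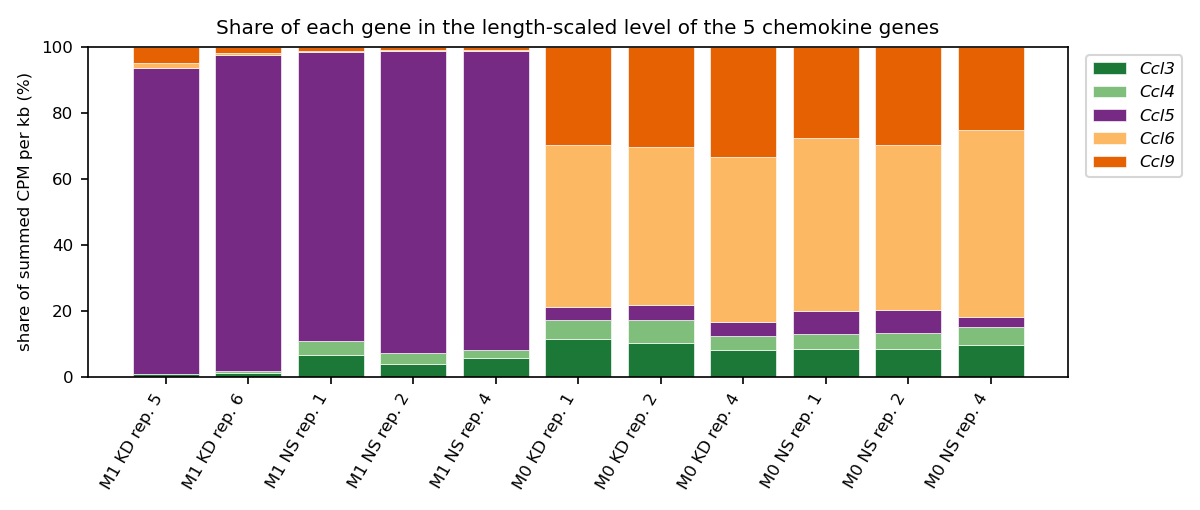
Share of each gene in the summed CPM per kb of the 5 chemokine genes, 1 stacked bar per library from M1 KD to M0 NS. Ccl5 fills 87.5 to 95.7% of each M1 bar, and Ccl6 with Ccl9 fills most of each M0 bar.

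Ratios of counts were taken within each library, where scaling has no part. There were 3.32 and 2.29 Ccl3 counts for each Ccl4 count in M1 KD, 1.75, 1.34 and 2.93 in M1 NS, 2.21, 1.75 and 2.11 in M0 KD, and 2.10, 2.04 and 2.05 in M0 NS. The M1 KD and M1 NS ratios overlapped, whereas the levels of both genes did not. There were 6.31 and 3.41 Ccl9 counts for each Ccl6 count in M1 KD, 6.25, 4.50 and 5.72 in M1 NS, 1.03, 1.07 and 1.13 in M0 KD, and 0.887, 1.003 and 0.754 in M0 NS. That ratio set all M1 libraries apart from all M0 libraries, and its M1 KD and M1 NS values overlapped. For each Ccl3 count there were 178 and 100.1 Ccl5 counts in M1 KD, 16.7, 30.7 and 19.8 in M1 NS, 0.436 to 0.669 in M0 KD and 0.406 to 1.05 in M0 NS.

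Similarity of pattern was measured over the 11 libraries as the root mean square difference of centred log2 CPM between 2 genes, among 8321 genes whose mean log2 CPM reached 3. The libraries share their group structure, so nearness describes a common order of groups. Nearest to Ccl3 was Ccl4, at 0.336, followed by Trim56 at 0.346, which encodes a ubiquitin ligase, and 5730508B09Rik at 0.423. Nearest to Ccl4 were Ccl3, then 5730508B09Rik at 0.559 and Trim56 at 0.564. Trim56 averaged 87.1 CPM in M1 KD, 232 CPM in M1 NS, 54.8 CPM in M0 KD and 53.7 CPM in M0 NS, with its peak in M1 NS as for Ccl3 and Ccl4.

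Nearest to Ccl5 were Gbp4, a guanylate-binding protein gene, at 0.283, the serpin gene Serpina3f at 0.285 and Traf1, a signalling adaptor gene of TNF receptors, at 0.286. Traf1 averaged 591 CPM in M1 KD, 523 CPM in M1 NS, 3.30 CPM in M0 KD and 4.01 CPM in M0 NS. For Ccl6 they were Timp2, a metalloproteinase inhibitor gene, at 0.305, Rgs2, a regulator of G protein signalling, at 0.314 and the retinal reductase gene Dhrs3 at 0.339. Timp2 averaged 91.1 CPM in M1 KD, 23.6 CPM in M1 NS, 312 CPM in M0 KD and 375.5 CPM in M0 NS. For Ccl9 they were Anxa1, which encodes annexin A1, at 0.356, Ms4a14 at 0.378 and the DNA methyltransferase gene Dnmt3a at 0.386. Ccl6 and Ccl9 stood at 1.22 from each other, and 8.16% of the genes compared were nearer to Ccl6 than Ccl9 was. The widest gap among the 10 pairs was 5.48, between Ccl5 and Ccl6.

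The genes around the cluster gave the local background. Within 500 kb outside the outermost of the 5 genes, 58 genes were annotated, 49 were in the count table, and 25 besides the 5 chemokine genes were tested. Of these 25, 3 rose and 6 fell in M1 KD against M1 NS, where 36.8% of all genes tested were called, 17.6% higher and 19.2% lower. Their median log2 fold change was -0.06, and that of all genes tested 0.00103. AI662270, a noncoding transcript 299174 bases beyond Ccl5, had 12.5 and 15.1 CPM in M1 KD, against 69.2, 47.2 and 76.6 CPM in M1 NS, 42.5 to 48.5 CPM in M0 KD and 42.4 to 50.4 CPM in M0 NS. Its M1 KD libraries lay below all others, with a log2 fold change against M1 NS of -2.22 (SE 0.204, adjusted p = 1.82e-05, edgeR). The other falls were those of Slfn1 (log2 fold change -1.41), the fatty acid synthesis gene Acaca (-0.97), Synrg (-0.58), the clathrin adaptor gene Ap2b1 (-0.54) and Heatr6 (-0.45).

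Wfdc17, 39308 bases beyond Ccl4, rose by 1.09 on the log2 scale (SE 0.244, adjusted p = 0.00479, edgeR), with 398 and 546 CPM in M1 KD, against 273, 238 and 157 CPM in M1 NS. The metalloproteinase gene Mmp28 (1.53) and 1700020L24Rik (1.73) rose as well, at means of 2.21 and 1.12 CPM in M1 KD. In M0 KD against M0 NS none of the 25 was called, and the difference of effects called 3 higher, 1700020L24Rik, Mmp28 and Wfdc17, and 5 lower, AI662270, Slfn10-ps, Acaca, Synrg and Ap2b1, where it called 13.1% of all genes tested higher and 14.2% lower.

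Between M1 NS and M0 NS, 12 of the 25 rose and 5 fell, with a median of 0.53, where 26.9% of all genes tested rose and 28.6% fell, with a median of -0.04. Heatr9, which starts 3603 bases from the end of Ccl5, was the most raised of them, with 25.9 and 34.2 CPM in M1 KD, 24.5, 20.8 and 16.4 CPM in M1 NS, 0.0723 to 0.373 CPM in M0 KD and 0.186 to 0.427 CPM in M0 NS. Like Ccl5 it was high in all 5 M1 libraries and did not pass between M1 KD and M1 NS (log2 fold change 0.55, adjusted p = 0.176, edgeR). The schlafen genes Slfn4 and Slfn1 rose in M1 NS by log2 fold changes of 4.33 and 3.77. Between M1 KD and M0 KD, 10 of the 25 were higher and 6 lower, where 26.9% of all genes tested were higher and 31.4% lower.

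**Figure D4:**
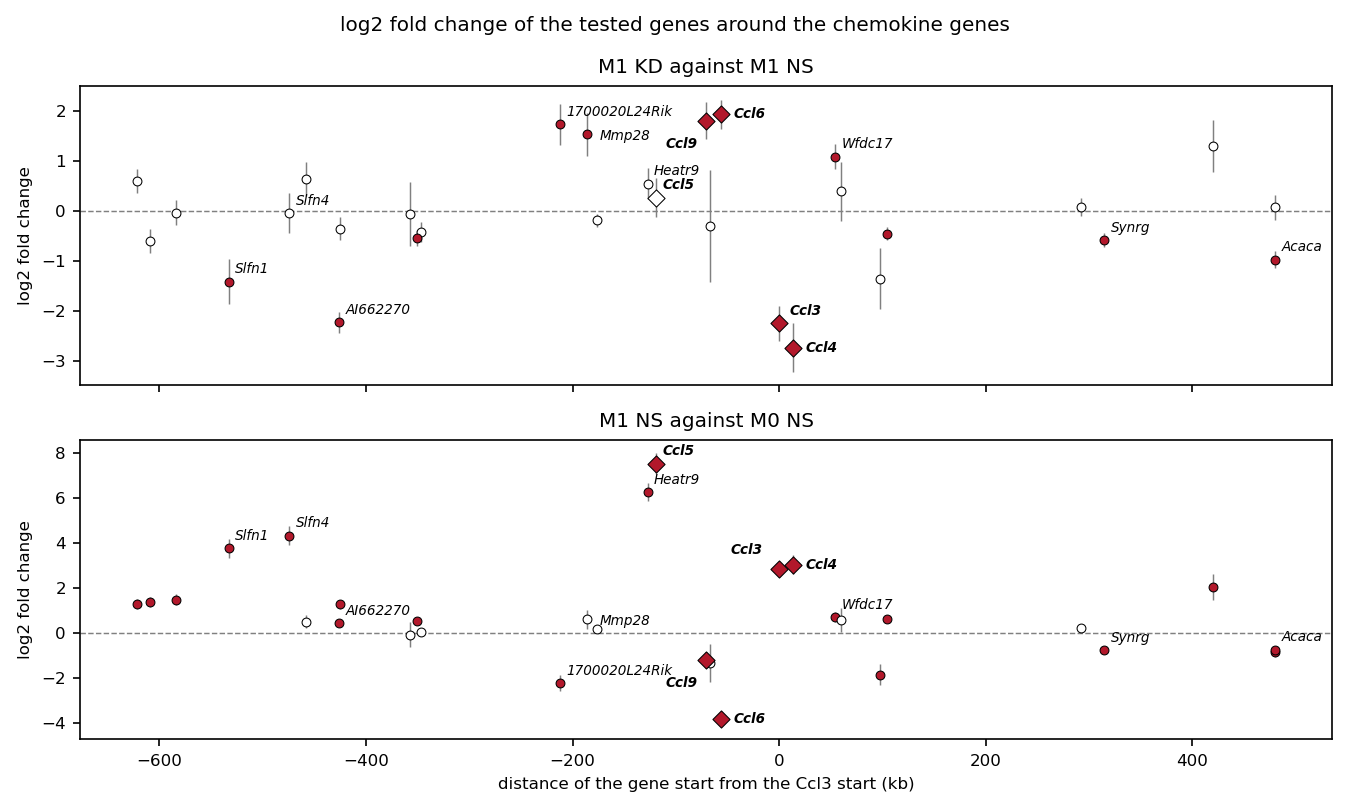
log2 fold change with its standard error for the 5 chemokine genes (diamonds) and the 25 other tested genes of the window (circles), against the distance of each gene start from that of Ccl3 in kb, for M1 KD against M1 NS (top) and M1 NS against M0 NS (bottom). Filled symbols had an adjusted p under 0.05, and in the top panel Ccl3 and Ccl4 lie at -2.24 and -2.72, and Ccl6 and Ccl9 at 1.93 and 1.80.

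Among the listed chemokine receptor genes, the atypical receptor gene Ccrl2 rose in M1 KD. Of 5 listed genes 4 were tested, Ackr2 being left out with at most 4 counts in any library. Ccrl2, which binds the chemoattractant chemerin and does not signal as a classical receptor, had 1755 and 2816 CPM in M1 KD, against 723, 734 and 433 CPM in M1 NS (log2 fold change 1.86, SE 0.264, adjusted p = 0.000275, edgeR). Both M1 KD libraries lay above all M1 NS libraries. Ccr1 had 39.5 and 15.3 CPM in M1 KD, against 29.2, 26.3 and 65.4 CPM in M1 NS, and Ccr3 had 2.33 and 0.987 CPM in M1 KD, against 0.896, 0.436 and 0.573 CPM in M1 NS. Neither was called (adjusted p = 0.29 and 0.0694). Of the 4 tested, 1 was thus called higher and 0 lower, where 17.6% of all genes tested were called higher and 19.2% lower.

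In M0 KD against M0 NS none of these receptor genes was called. The difference of effects was 2.18 for Ccrl2 (SE 0.359, adjusted p = 0.00137, edgeR), where 13.1% of all genes tested were called higher and 14.2% lower. In M1 NS against M0 NS, Ccrl2 rose (log2 fold change 4.96) and Ccr1, Ccr3 and Ccr1l1 fell (-1.03, -5.40 and -5.94). In that comparison 26.9% of all genes tested rose and 28.6% fell. Ccr1l1, a receptor gene related to Ccr1, had a count of 0 in both M1 KD libraries.

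**Figure D5:**
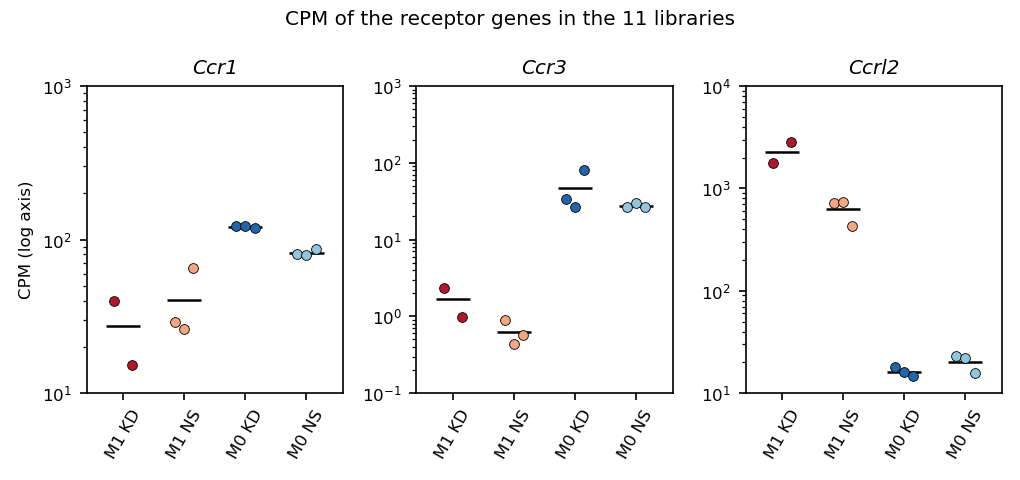
CPM of 3 receptor genes on log axes, 1 point per library and a line at the group mean, for M1 KD, M1 NS, M0 KD and M0 NS. Ccrl2 is highest in M1 KD, at 1755 and 2816 CPM, and its M1 NS points lie at 433 to 734 CPM.

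Of 15 other CC chemokine ligand genes 8 were tested, and 1 rose and none fell in M1 KD against M1 NS, where 17.6% of all genes tested rose and 19.2% fell. Their median log2 fold change was -0.53, and that of all genes tested 0.00103. Ccl8, a monocyte attractant, had 77.1 and 118 CPM in M1 KD, against 27.3, 23.8 and 11.2 CPM in M1 NS (log2 fold change 2.23, SE 0.407, adjusted p = 0.00138, edgeR). Ccl2 and Ccl7, also monocyte attractants, had log2 fold changes of -1.47 (adjusted p = 0.0838, edgeR) and -1.38 (adjusted p = 0.0625). For these genes the difference of effects was called, at 2.80 for Ccl8 (adjusted p = 0.026), -2.88 for Ccl2 (adjusted p = 0.0248) and -2.78 for Ccl7 (adjusted p = 0.0147). That was 1 of the 8 higher and 2 lower, where 13.1% of all genes tested were called higher and 14.2% lower. M0 KD replicate 4 was the highest M0 library for Ccl2 and Ccl7, and its part in their differences was not tested. In M1 NS against M0 NS, 7 of the 8 rose, led by Ccl22 (7.57) and Ccl8 (5.86), and Ccl27a fell (-1.48), where 26.9% of all genes tested rose and 28.6% fell.

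Transcription factors known to act on chemokine genes were listed as well, and all 22 were tested. In M1 KD against M1 NS 7 rose and 1 fell, with a median log2 fold change of 0.24. Of all genes tested, 36.8% were called, 17.6% higher and 19.2% lower, with a median of 0.00103. The called share of the list was thus close to that of all genes, while its calls lay mostly on the higher side. Egr1, an immediate early factor, had 0.439 and 0.731 CPM in M1 KD, against 25.5, 20.9 and 14.2 CPM in M1 NS, 21.7 to 23.9 CPM in M0 KD and 16.6 to 19.2 CPM in M0 NS. It was thus far lower in M1 KD than in any other group, with a log2 fold change against M1 NS of -5.14 (SE 0.306, adjusted p = 2.5e-06, edgeR). The AP-1 genes Fos (1.70), Jun (1.23) and Junb (1.43), Cebpb (1.85) and the interferon regulatory factor genes Irf8 (1.91), Irf1 (1.55) and Irf5 (0.85) rose. None of the NF-kappaB genes Nfkb1, Nfkb2, Rel, Rela, Relb and Nfkbia was called in M1 KD against M1 NS, and Rela, the main activating subunit, had 215 and 213 CPM in M1 KD, against 186, 227.5 and 149 CPM in M1 NS.

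Proteins that bind AU-rich elements control the decay of many chemokine transcripts. The 3′ UTR of Ccl3 held 5 copies of ATTTA, the core of such elements, and 1.75% of 3′ UTRs of similar length held as many. There were 2 copies in Ccl4 (14.6%), 4 in Ccl6 (20.4%), 5 in Ccl9 (41.9%) and 0 in Ccl5. Of the 12 listed decay and stability factors, all tested, 2 rose and 7 fell in M1 KD against M1 NS, with a median log2 fold change of -0.45, where 17.6% of all genes tested rose and 19.2% fell, with a median of 0.00103. Zfp36, which encodes the decay factor tristetraprolin, had 745 and 908 CPM in M1 KD, against 454, 468 and 222 CPM in M1 NS (log2 fold change 1.12, SE 0.251, adjusted p = 0.00479, edgeR), and Zfp36l2 rose too (0.75). Celf1 (-1.36), Zc3h12c (-1.80) and Zfp36l1 (-1.39) fell most. In M0 KD against M0 NS none of the transcription factors or decay factors was called.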

How the data were processed

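Per the submitters' processing notes, the tools were STAR 2.5.2b, Trimmomatic 0.36 and Subread 1.5.2 (featureCounts), with GRCm38. The authors deposited a raw count per gene and library and a normalized signal for 22812 genes. Checked on the files, that signal is the count divided by 1 size factor per library. The row with a blank name, at most 0.000305% of a library's counts, was left out. No 2 libraries of a group had counts within sampling noise of each other.

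Counts were tested with edgeR 4.0.16 in R 4.3.3, after filterByExpr (minimum count 10, minimum total 15) had left 15024 genes. TMM factors, 1 coefficient per group and all 11 libraries entered the robust quasi-likelihood fit, and p-values were adjusted over all genes tested by Benjamini-Hochberg, with calls under 0.05. The fit was tested on simulated data. CPM are mean ± SD over libraries, and no interval for counting error is attached to them.

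Alternatives were DESeq2 1.42.0, limma 3.58.1 (voom on the counts, and trend on log2 of the authors' normalized signal plus 1), other scaling and filters, a block for the label number, the compared groups alone, and each library left out. The 5 genes and the gene lists were chosen with earlier results of these data known. Of each list, receptors and the called members with the smallest p, at most 4 per comparison, were to be named, besides every expressed gene of the window. Further members named were chosen after their values were seen, and 1 receptor gene is not reported here. Lengths and positions come from GENCODE M21, and promoter sequences from RefSeq on GRCm38.p6, where 3 of the 5 genes had an entry. Ccl4 and Ccl5 had none.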

Additional observations from a re-analysis of the deposited data

Results flagged for a closer look

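The gapmer effect differed between M1 and M0 macrophages for 3 of the 5 chemokine genes by the test of that difference with edgeR. For Ccl3 the effect in M1 minus the effect in M0 was -2.61 on the log2 scale (adjusted p = 0.00151), made up of -2.24 in M1 and 0.37 in M0. For Ccl4 it was -3.12 (adjusted p = 0.00344), made up of -2.72 in M1 and 0.39 in M0. For Ccl6 it was 1.78 (adjusted p = 0.00607), made up of 1.93 in M1 and 0.15 in M0. Of all genes tested, 27.3% passed this test. M1 KD had 2 libraries, with numbers that no other group has, so handling and the gapmer effect in M1 cannot be told apart here.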

How the results depend on the processing

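Across 25 results, the 5 genes in 5 comparisons, 480 values were computed under the alternatives. Direction and side of the threshold were kept in 459, and in all values for 17 results. Leaving out 1 library gave log2 fold changes for M1 KD against M1 NS of -3.07 to -1.73 for Ccl3, -3.95 to -2.07 for Ccl4, -0.02381 to 0.50 for Ccl5, 1.75 to 2.11 for Ccl6 and 1.15 to 2.24 for Ccl9. For M0 KD against M0 NS these were -0.54 to 0.03524 for Ccl5 and -0.22 to 0.33 for Ccl6. For M1 KD against M0 KD they were -0.59 to 0.75 for Ccl3, -1.30 to 0.58 for Ccl4 and -0.50 to 0.60 for Ccl9. For Ccl9 the difference of effects was 0.70 to 1.80.

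In M1 KD against M0 KD, library size as the only scaling turned Ccl3 to -0.26 and Ccl9 to -0.34, and Ccl4 was at 0.007439 with the compared groups alone, 0.001129 with DESeq2 and 0.0008444 with RLE factors. The difference of effects for Ccl9 passed with DESeq2 (1.39, adjusted p = 0.0156) and with no filter (1.37, adjusted p = 3.57e-06). The causes were not tested.

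Genes called in M1 KD against M1 NS numbered 3104 with the compared groups alone, and 3658 to 5796 with 1 library left out, against 5535. In M0 KD against M0 NS they numbered 1103 with the compared groups alone, 181 with DESeq2, 385 with no filter and 0 to 1 with 1 library left out, against 0. None of the 5 chemokine genes passed there under any of these. With library size only, the share of calls that were higher was 26.7% in place of 48.5% for M1 NS against M0 NS and 25.1% in place of 46.1% for M1 KD against M0 KD, with medians over all genes of -0.42 and -0.59.

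Label numbers 1, 2 and 4 are shared by 3 groups. Deviations of same-numbered libraries correlated at 0.135, 0.0221 and 0.124 between M0 KD and M0 NS and at 0.0899, -0.0752 and -0.0825 between M1 NS and M0 NS, so the numbers were not taken to pair them. With the number as a replicate block over 9 libraries, 0 genes were called in M0 KD against M0 NS and 8048 in M1 NS against M0 NS (against 8338), Ccl3 had log2 fold changes of 0.36 and 2.85 and Ccl4 of 0.41 and 3.03 (2.85 and 3.04 without it), and no call of the 5 genes changed. Different-numbered libraries correlated at -0.133 to 0.0323 between M0 KD and M0 NS, and each M0 KD library correlated best with its own number in M0 NS. Between M1 NS and M0 NS, different-numbered libraries correlated at -0.142 to 0.173, and not every M1 NS library correlated best with its own number. M1 KD shares no number, so no paired value exists for its comparisons. With 2 M1 KD libraries, every comparison that uses them rests on the spread shared with the other groups. Leaving out 1 M1 KD library changed the call of Ccl9 against M1 NS, and of Ccl3 and Ccl4 against M0 KD. Ccl9 in M1 KD against M0 KD was called under none of the 19 alternatives. Its sign turned without M0 KD replicate 1, M0 KD replicate 2 or M1 KD replicate 5, and with library size only. The difference of effects for Ccl9 was called without M0 KD replicate 4 or M1 KD replicate 6. Ccl5 and Ccl6 in M1 KD against M0 KD kept their call under all 19 alternatives.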
